A study of Mus musculus with 2 samples.

Results

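Genes of the proteasome were examined in the left ventricle of a male mouse labelled Lamp2 knockout and of a wildtype male mouse, both of the 129-SvEv strain and 10 weeks old. The members were the rows of the deposited gene table whose symbol starts with Psm, then a letter from a to g, then a digit, which gave 49 of 31920 rows. Polyadenylated RNA was sequenced in 1 library per genotype, so no difference has a replicate check and no p-value is given. Lamp2 encodes a membrane protein of lysosomes. The Lamp2 row held 986 reads, or 112 reads per 1000000 reads (RPM), in the knockout-labelled library and 990 reads, or 118 RPM, in the wildtype. Which part of the gene the allele lacks is not given in the sources used here, so this count does not check the label, and the genotype is called knockout-labelled.

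The proteasome is the barrel-shaped protease that degrades proteins tagged with ubiquitin. Its core particle stacks outer rings of alpha subunits, which gate the entrance, on inner rings of beta subunits, of which 3 kinds cut peptide bonds. A regulatory particle of ATPases (the base) and a lid binds ubiquitin chains, removes them and threads the substrate into the core. In cells exposed to interferon the 3 cutting subunits are replaced by counterparts that form the immunoproteasome. In heart muscle the proteasome and the autophagy-lysosome route are the main ways in which proteins are cleared.

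A gene was counted as measured at 5 RPM or more in the higher library, which 46 of the 49 members and 10209 rows of the table reached. The knockout-labelled library held 8773820 reads and the wildtype library 8410593. Psma8, an alpha subunit of germ cells, had 9 reads in the knockout-labelled library and 7 in the wildtype. Psmb11, the catalytic subunit of thymic epithelium, had 0 reads in both, where 3 reads, the limit that a count of 0 allows, equal 0.342 RPM in the knockout-labelled and 0.357 RPM in the wildtype library. Psmc3ip had 35 and 27 reads, or 3.99 RPM in the knockout-labelled and 3.21 RPM in the wildtype library. It encodes a meiotic recombination protein and shares the naming pattern without being a proteasome subunit. The results below are on the 46 measured genes.

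Proteasome mRNA took a larger share of the knockout-labelled library. All 49 members together held 50293 of its reads, or 0.573% (exact binomial 95% interval 0.568 to 0.578%), against 37174 reads or 0.442% (0.438 to 0.447%) in the wildtype. Their summed level was 5732 RPM in the knockout-labelled library and 4420 RPM in the wildtype, a ratio of 1.30 (1.28 to 1.31). All intervals of ratios here are exact conditional binomial 95% intervals from the reads. They cover counting error only, since without molecular identifiers reads need not stem from separate molecules, and they say nothing of the spread between animals. In bulk tissue, fewer cells of a type and less RNA per cell cannot be told apart.

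The difference was small for each gene and lay in the same direction for nearly all of them. The log2 ratio of knockout-labelled to wildtype RPM, taken after adding 1 RPM to both, was above 0 for 43 of the 46 members, or 93.5%, against 61.2% of all measured genes. The exceptions were Psma5, Psmd10 and Psmg1. The members' median log2 ratio was 0.30 with quartiles of 0.14 and 0.41, while for all measured genes together the median was 0.11 and the quartiles lay at -0.16 and 0.39. The members also spread less, with a standard deviation of 0.22 among their log2 ratios, against 0.51 among all measured genes. On the same scale, no member was 2-fold higher or 2-fold lower, sizes that 3.35% and 2.37% of all measured genes reached. At least 1.5-fold higher were 6 members (Psmb4, Psmb7, Psmb8, Psmd8, Psmd11 and Psmd12), which is 13.0% of them and close to the 12.8% of all measured genes, so that count is not particular to the proteasome. With mitochondrial transcripts and the 10 most abundant genes left out of the library totals it was 0, against 7.30% of all measured genes. No member was 1.5-fold lower, against 7.30% of all measured genes. The members nearest to the 1.5-fold limit were Psmd12 just above it, at a log2 ratio of 0.61, and Psmb1 just below it, at 0.58. The counting interval of the ratio lay above 1 for 30 members (65.2%, against 35.0% of all measured genes) and below 1 for 0 members, against 16.8%. Members were more abundant than most genes, with a median of 79.8 RPM in the higher library against 24.96 RPM for all measured genes, and abundant genes have narrower intervals.

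**Figure D1:**
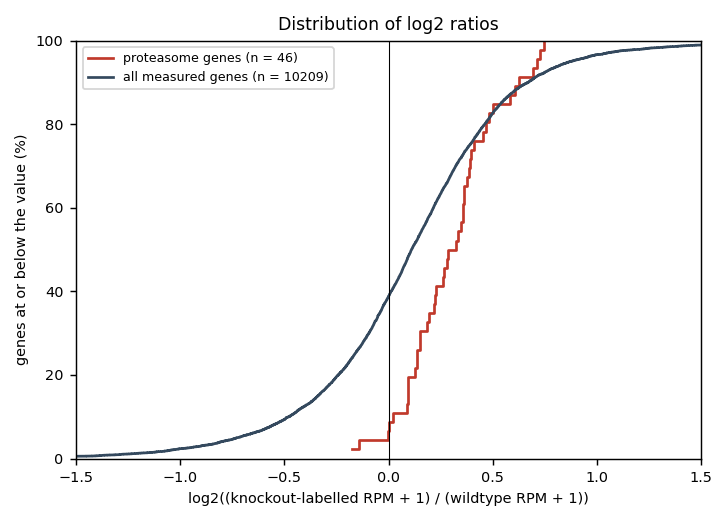
Cumulative share of genes (vertical axis, percent) at or below each log2 ratio of knockout-labelled to wildtype RPM after adding 1 RPM (horizontal axis), for the 46 measured proteasome genes and for all 10209 measured genes. The proteasome curve is steeper and its median is 0.30, to the right of 0.11 for all genes, while both curves reach 1.5-fold higher at nearly the same share.

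The 7 alpha ring subunits split into a pair with higher levels and 5 with ratios near 1. Psma7 had 266 RPM in the knockout-labelled library and 192 RPM in the wildtype, from 2338 and 1616 reads, a ratio of 1.39 (1.30 to 1.48). Psma6 had 186 RPM in the knockout-labelled library and 142 RPM in the wildtype, a ratio of 1.31 (1.22 to 1.42). The intervals of the other 5 covered 1. Psma1 had 39.0 RPM in the knockout-labelled library and 38.9 RPM in the wildtype, a ratio of 1.003 (0.859 to 1.17), and Psma2 had 153 RPM in the knockout-labelled library and 143 RPM in the wildtype, a ratio of 1.07 (0.987 to 1.16). Psma3 had 19.9 RPM in the knockout-labelled library and 18.1 RPM in the wildtype, a ratio of 1.10 (0.883 to 1.38). Psma4 and Psma5 lay on either side of 1. Psma4 had 32.0 RPM in the knockout-labelled library and 28.8 RPM in the wildtype, a ratio of 1.11 (0.934 to 1.33). Psma5 had 13.4 RPM in the knockout-labelled library and 15.3 RPM in the wildtype, from 118 and 129 reads, and the lowest ratio of all members, 0.877 (0.677 to 1.13). The median log2 ratio of the ring was 0.14, against 0.11 for all measured genes. With mitochondrial transcripts and the 10 most abundant genes left out of the library totals (reduced totals) it was -0.05, against -0.08 for all measured genes. The ratio of the ring's summed reads was 1.23 (1.18 to 1.28).

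The structural subunits of the constitutive beta ring, Psmb1 to Psmb4, were among the more abundant members and 3 of the 4 had ratios above 1.3. Positions are the deposited gene spans on mm10, counted from 1. Psmb4 (chr3:94884324-94886958, minus strand) had 429.8 RPM in the knockout-labelled library and 278 RPM in the wildtype, from 3771 and 2342 reads, a ratio of 1.54 (1.47 to 1.63). Psmb1 had 263 RPM in the knockout-labelled library and 176 RPM in the wildtype, a ratio of 1.499 (1.40 to 1.60). Psmb2 had 259.8 RPM in the knockout-labelled library and 199 RPM in the wildtype, a ratio of 1.31 (1.23 to 1.39). Psmb3 differed from these and resembled most of the alpha ring. It had 47.2 RPM in the knockout-labelled library and 44.2 RPM in the wildtype, with a ratio of 1.07 (0.925 to 1.23). The structural beta subunits together had a summed ratio of 1.43 (1.39 to 1.48).

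The 3 constitutive catalytic subunits were all higher in the knockout-labelled library. Psmb7, the trypsin-like subunit (chr2:38588046-38643906, minus strand), had 196 RPM in the knockout-labelled library and 119 RPM in the wildtype, from 1720 and 1002 reads, a ratio of 1.65 (1.52 to 1.78). Psmb5, the chymotrypsin-like subunit and the main target of bortezomib (chr14:54614120-54617995, minus strand), had 66.3 RPM in the knockout-labelled library and 49.6 RPM in the wildtype, a ratio of 1.34 (1.18 to 1.52). Psmb6, the caspase-like subunit (chr11:70525357-70527858, plus strand), had 329 RPM in the knockout-labelled library and 256 RPM in the wildtype, a ratio of 1.28 (1.21 to 1.36). Together the 3 genes held 5189 reads in the knockout-labelled library and 3575 in the wildtype, a summed ratio of 1.39 (1.33 to 1.45). Over the whole constitutive beta ring 7 of 7 log2 ratios were above 0, against 61.2% of all measured genes. The ring's median was 0.41, or 0.22 with the reduced totals.

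Each immunoproteasome gene is the counterpart of a constitutive catalytic gene. Psmb8 replaces Psmb5, Psmb9 replaces Psmb6 and Psmb10 replaces Psmb7. The 150 bases before the start of 5 of these genes are shown because the members of a pair sit in different places and under different upstream sequence. Psmb8 and Psmb9 lie in the major histocompatibility region of chromosome 17, on both sides of the peptide transporter gene Tap1, with 225 bases between the deposited ends of Psmb9 and Tap1 and 969 between Tap1 and Psmb8. The Psmb9 stretch below falls within that gap of 225 bases. The sequences are from RefSeq on GRCm38.p6, each read 5′ to 3′ on the gene's own strand, at chr17:34198045-34198194 for Psmb8 (plus strand), chr14:54617996-54618145 for Psmb5 (minus), chr17:34187331-34187480 for Psmb9 (minus), chr11:70525207-70525356 for Psmb6 (plus) and chr8:105938393-105938542 for Psmb10 (minus). Capitals mark the core of the antioxidant response element, spelled TGACNNNGC, in Psmb5 and Psmb6, and a CCAAT box on the reverse strand in Psmb9.
Psmb8: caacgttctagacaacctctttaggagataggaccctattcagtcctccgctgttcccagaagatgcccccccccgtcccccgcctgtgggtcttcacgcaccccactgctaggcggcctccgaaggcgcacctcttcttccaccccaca
Psmb5: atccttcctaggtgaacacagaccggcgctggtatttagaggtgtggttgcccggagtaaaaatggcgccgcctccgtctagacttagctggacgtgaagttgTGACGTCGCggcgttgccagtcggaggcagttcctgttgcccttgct
Psmb9: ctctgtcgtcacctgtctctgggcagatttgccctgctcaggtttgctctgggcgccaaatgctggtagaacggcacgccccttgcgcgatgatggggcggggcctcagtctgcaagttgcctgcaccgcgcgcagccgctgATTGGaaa
Psmb6: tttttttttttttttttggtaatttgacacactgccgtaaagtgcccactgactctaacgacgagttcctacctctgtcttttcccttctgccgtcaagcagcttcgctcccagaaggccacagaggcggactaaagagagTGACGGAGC
Psmb10: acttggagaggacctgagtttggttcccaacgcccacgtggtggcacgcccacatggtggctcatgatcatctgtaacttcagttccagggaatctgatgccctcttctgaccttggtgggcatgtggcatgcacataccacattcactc

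The immunoproteasome genes were expressed at lower levels than their counterparts, also per kilobase of transcript, and relative to these they did not share a direction. Psmb8 (chr17:34198195-34201454, plus strand) had 37.7 RPM in the knockout-labelled library and 22.4 RPM in the wildtype, from 331 and 188 reads, a ratio of 1.69 (1.41 to 2.03). Psmb10 (chr8:105935728-105938392, minus strand) had 35.2 RPM in the knockout-labelled library and 27.5 RPM in the wildtype, from 309 and 231 reads, a ratio of 1.28 (1.08 to 1.53). Psmb9 (chr17:34182099-34187330, minus strand) had 6.27 RPM in the knockout-labelled library and 5.23 RPM in the wildtype, and its 55 and 44 reads gave a wide interval, 1.20 (0.791 to 1.82). Within pairs, which do not depend on how the libraries are scaled, Psmb8 and Psmb10 went opposite ways and the interval of Psmb9 covered 1. Psmb8 held 36.3% (33.1 to 39.5%) of the reads of Psmb8 and Psmb5 in the knockout-labelled library and 31.1% (27.4 to 34.9%) in the wildtype, a ratio of ratios of 1.26 (1.01 to 1.58). Psmb10 held 15.2% (13.7 to 16.9%) of the reads of Psmb10 and Psmb7 in the knockout-labelled library and 18.7% (16.6 to 21.03%) in the wildtype, 0.779 (0.644 to 0.945). Psmb9 held 1.87% (1.41 to 2.43%) of the reads of Psmb9 and Psmb6 in the knockout-labelled library and 2% (1.46 to 2.68%) in the wildtype, 0.934 (0.614 to 1.43). In the sum over all 6 genes, Psmb6 held 2887 of the 5189 constitutive reads in the knockout-labelled library and 2156 of 3575 in the wildtype. The 3 immunoproteasome genes held 11.8% (11.0 to 12.7%) of all catalytic reads in the knockout-labelled library and 11.5% (10.5 to 12.5%) in the wildtype, a ratio of ratios of 1.03 (0.911 to 1.18). Per kilobase of transcript these shares were 7.70% in the knockout-labelled library and 7.45% in the wildtype.

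**Figure D2:**
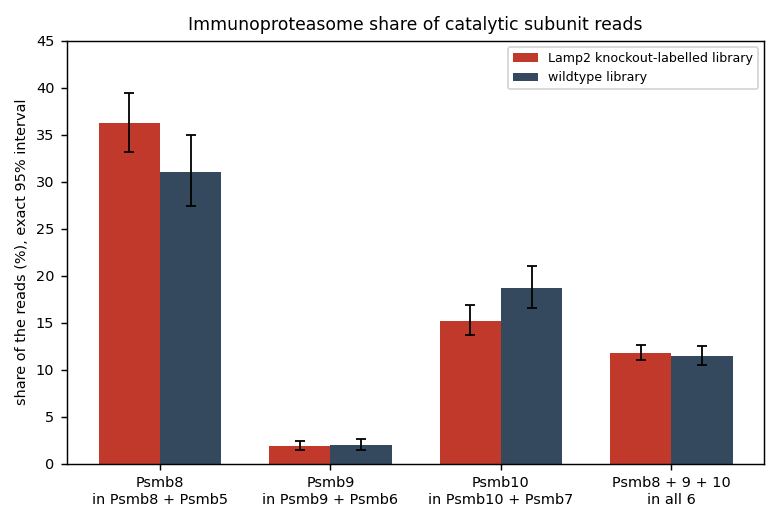
Share of each catalytic pair's reads held by the immunoproteasome gene (vertical axis, percent) in the knockout-labelled library (left of each pair) and the wildtype library (right), with exact binomial 95% intervals as bars. The Psmb8 share is higher in the knockout-labelled library (36.3% against 31.1%), the Psmb10 share lower (15.2% against 18.7%) and the Psmb9 share near 2% in both.

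The 6 ATPases of the base, Psmc1 to Psmc6, form the ring that unfolds substrates and had modest ratios. Psmc3, the most abundant of them, had 246 RPM in the knockout-labelled library and 242 RPM in the wildtype, and from 2158 and 2036 reads its ratio was 1.02 (0.956 to 1.08). The other 5 had intervals above 1, against 35.0% of all measured genes. Psmc4 had 71.6 RPM in the knockout-labelled library and 54.9 RPM in the wildtype, a ratio of 1.30 (1.15 to 1.47). Psmc2 had 174 RPM in the knockout-labelled library and 135 RPM in the wildtype, a ratio of 1.28 (1.19 to 1.39), and Psmc1 had 87.0 RPM in the knockout-labelled library and 68.8 RPM in the wildtype, a ratio of 1.26 (1.13 to 1.41). Psmc5 and Psmc6 had the smallest ratios of these 5. Psmc5 had 91.9 RPM in the knockout-labelled library and 80.1 RPM in the wildtype, a ratio of 1.15 (1.03 to 1.27). Psmc6 had 72.6 RPM in the knockout-labelled library and 63.7 RPM in the wildtype, a ratio of 1.14 (1.01 to 1.28). The summed ratio of the ATPases was 1.15 (1.11 to 1.19), with a median log2 ratio of 0.26, or 0.071 with the reduced totals.

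The non-ATPase subunits of the base include the scaffolds Psmd1 and Psmd2 and the ubiquitin receptor Psmd4. Psmd2 (chr16:20651652-20663414, plus strand) had more reads than any other member. It had 492 RPM in the knockout-labelled library and 352 RPM in the wildtype, from 4313 and 2961 reads, a ratio of 1.40 (1.33 to 1.46). Psmd4 had 307 RPM in the knockout-labelled library and 256 RPM in the wildtype, a ratio of 1.20 (1.13 to 1.27). Psmd1 had 203 RPM in the knockout-labelled library and 174 RPM in the wildtype, a ratio of 1.16 (1.09 to 1.25). The intervals of all 3 lay above 1, against 35.0% of all measured genes.

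The lid held 3 of the 6 members that were at least 1.5-fold higher, a size that 12.8% of all measured genes reached. Psmd8 (chr7:29174187-29180673, minus strand) had 96.5 RPM in the knockout-labelled library and 57.2 RPM in the wildtype, from 847 and 481 reads, and together with Psmb8 the highest ratio of all members, 1.69 (1.51 to 1.89). Psmd11 (chr11:80428615-80472133, plus strand) had 124 RPM in the knockout-labelled library and 76.7 RPM in the wildtype, a ratio of 1.62 (1.47 to 1.79). Psmd12 (chr11:107479528-107498036, plus strand) had 184 RPM in the knockout-labelled library and 121 RPM in the wildtype, a ratio of 1.53 (1.41 to 1.65). Among all measured genes these 3 ratios ranked at the 92.3, 90.8 and 88.0 percentile, in the order given. The remaining lid genes had smaller ratios. Psmd3 had 169 RPM in the knockout-labelled library and 128 RPM in the wildtype, a ratio of 1.32 (1.22 to 1.43). Psmd6 had 67.1 RPM in the knockout-labelled library and 53.5 RPM in the wildtype, a ratio of 1.25 (1.11 to 1.42). Psmd7 and Psmd14 encode the paired subunits at the lid's deubiquitinating centre, of which Psmd14 carries the active site. Psmd14 had 45.4 RPM in the knockout-labelled library and 37.2 RPM in the wildtype, a ratio of 1.22 (1.05 to 1.42), and Psmd7 had 205 RPM in the knockout-labelled library and 170.4 RPM in the wildtype, a ratio of 1.21 (1.12 to 1.29). Psmd13 had 38.3 RPM in the knockout-labelled library and 35.8 RPM in the wildtype and was the lid gene whose interval covered 1, at 1.07 (0.913 to 1.25). All 8 lid log2 ratios were above 0, against 61.2% of all measured genes. The lid's median was 0.36 and its summed ratio 1.37 (1.32 to 1.42). With the reduced totals the median was 0.17 and the log2 ratios of Psmd8, Psmd11 and Psmd12 were 0.55, 0.50 and 0.41, all under 1.5-fold.

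**Figure D3:**
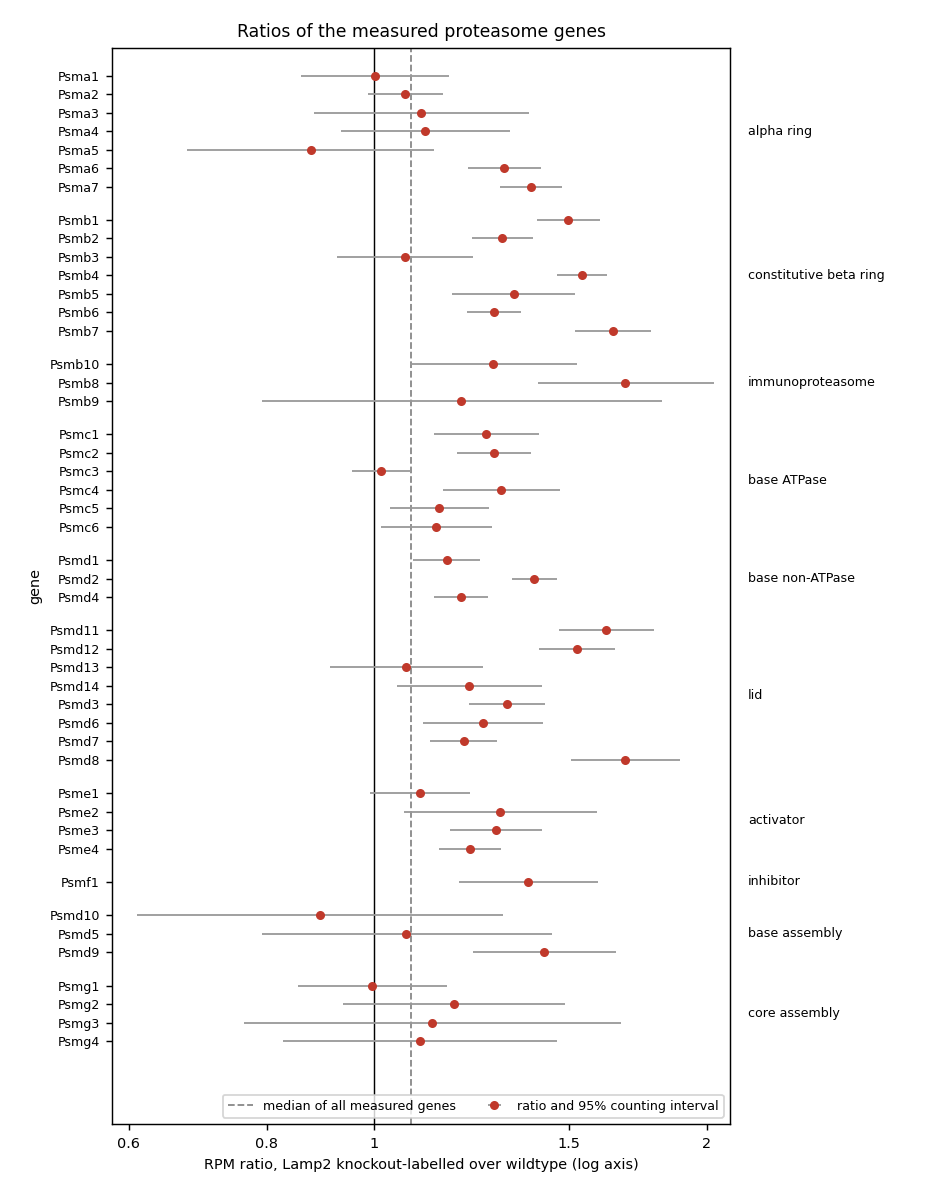
Ratio of knockout-labelled to wildtype RPM (horizontal log axis) for each measured proteasome gene, by role, with points for the ratio and lines for its exact 95% counting interval; the solid line marks 1 and the dashed line the median of all measured genes. The ratios run from 0.877 for Psma5 to 1.69 for Psmb8 and Psmd8, and most intervals of the beta ring and the lid lie to the right of 1.

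Of the 4 activators that cap the core in place of the regulatory particle, 3 had ratios with intervals above 1. The share among all measured genes was 35.0%. Psme1 and Psme2 encode the partners of the interferon-inducible activator ring and are neighbours on chromosome 14, with 5912 bases between them. Psme2 had 26.9 RPM in the knockout-labelled library and 20.7 RPM in the wildtype, a ratio of 1.30 (1.06 to 1.59). Psme1 had 90.04 RPM in the knockout-labelled library and 81.8 RPM in the wildtype, a ratio of 1.10 (0.993 to 1.22). Psme3, which forms the related nuclear activator, had 114 RPM in the knockout-labelled library and 88.3 RPM in the wildtype, a ratio of 1.29 (1.17 to 1.42). The large activator gene Psme4 had 244 RPM in the knockout-labelled library and 199.99 RPM in the wildtype, a ratio of 1.22 (1.15 to 1.30). The median log2 ratio of the 4 activators was 0.33, or 0.13 with the reduced totals. On these totals Psme1 was at -0.06 and the median of all measured genes was -0.08. Activators held 17.1% (16.6 to 17.6%) of their reads together with the core's in the knockout-labelled library and 18.7% (18.1 to 19.3%) in the wildtype, a ratio of ratios of 0.898 (0.854 to 0.945). Psmf1, named as an inhibitor of the core, had 52.3 RPM in the knockout-labelled library and 37.9 RPM in the wildtype, a ratio of 1.38 (1.19 to 1.60).

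Apart from Psmd9, the chaperones that assemble the particle had intervals that covered 1, with ratios from 0.895 to 1.18. Several of these intervals were wide, such as 0.763 to 1.67 for Psmg3. Of the core chaperones, Psmg1 had 38.6 RPM in the knockout-labelled library and 38.8 RPM in the wildtype, a ratio of 0.997 (0.854 to 1.16). Its partner Psmg2 had 19.4 RPM in the knockout-labelled library and 16.4 RPM in the wildtype, a ratio of 1.18 (0.938 to 1.49). The second pair of core chaperones was scarcer. Psmg3 had 6.84 RPM in the knockout-labelled library and 6.06 RPM in the wildtype, a ratio of 1.13 (0.763 to 1.67), and Psmg4 had 12.4 RPM in the knockout-labelled library and 11.3 RPM in the wildtype, a ratio of 1.10 (0.828 to 1.46). All 4 intervals covered 1. Among the base chaperones, Psmd9 had 50.7 RPM in the knockout-labelled library and 35.5 RPM in the wildtype, from 445 and 299 reads, a ratio of 1.43 (1.23 to 1.66). Psmd5 had 10.9 RPM in the knockout-labelled library and 10.2 RPM in the wildtype, a ratio of 1.07 (0.792 to 1.45). Psmd10, also known as gankyrin, had 6.38 RPM in the knockout-labelled library and 7.13 RPM in the wildtype, from 56 and 60 reads, a ratio of 0.895 (0.610 to 1.31). Across the 7 chaperones 1 interval lay above 1, that of Psmd9, against 35.0% of all measured genes. The chaperones were scarce, with a median of 12.4 RPM in the higher library. Among all genes split into 4 equal groups by level, the share was 16.3% in the lowest group and 25.45% in the next. The chaperones' median log2 ratio was 0.13, or -0.06 with the reduced totals, against 0.11 and -0.08 for all measured genes.

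**Figure D4:**
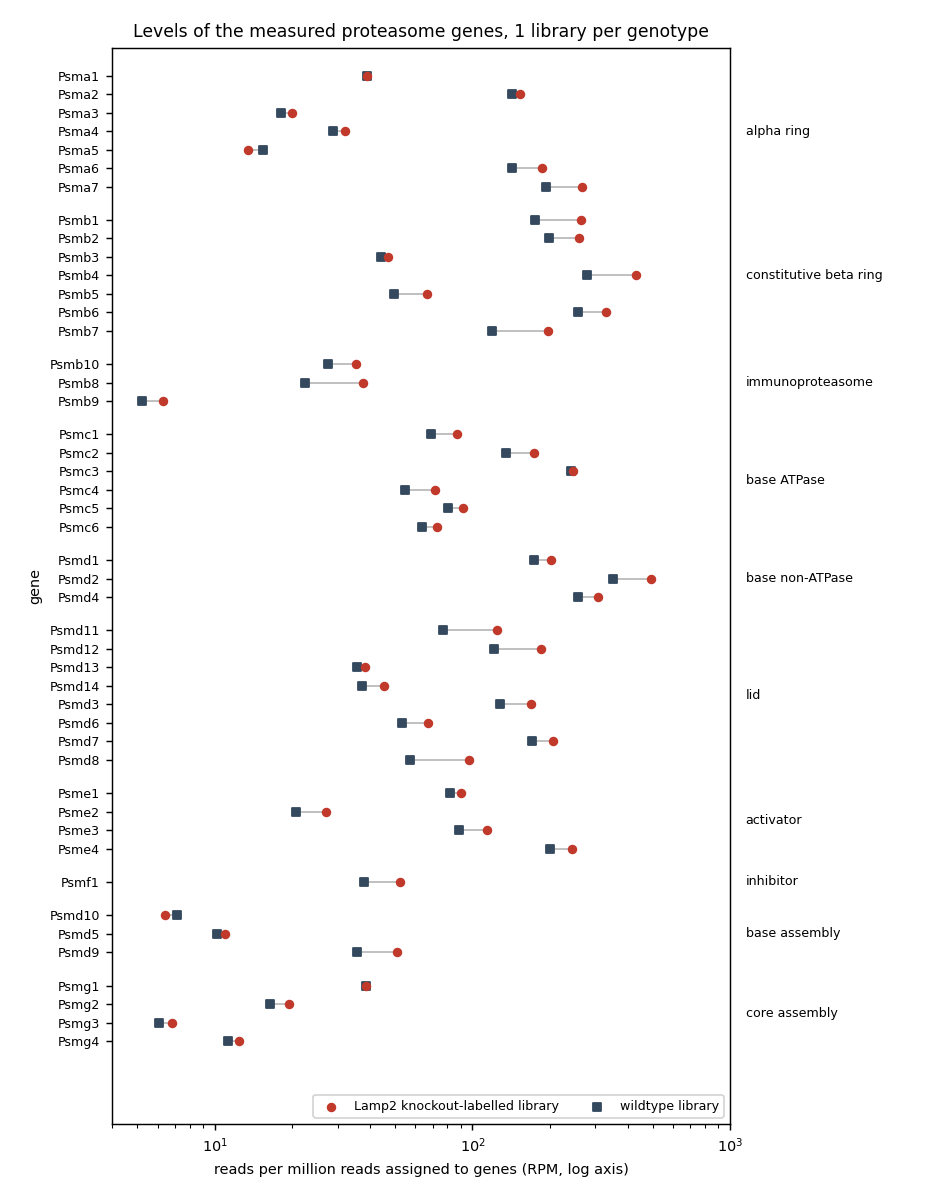
RPM (horizontal log axis) of each measured proteasome gene in the knockout-labelled and the wildtype library, grouped by role. Psmd2 is highest in both libraries, at 492 and 352 RPM, and Psmb9, Psmd10 and Psmg3 lie near the minimum of 5 RPM.

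Parts of the particle can be set against each other without any scaling of the libraries. Alpha genes held 30.9% (30.2 to 31.5%) of the reads of both constitutive rings in the knockout-labelled library and 34.0% (33.2 to 34.8%) in the wildtype, a ratio of ratios of 0.866 (0.827 to 0.907). Lid genes held 55.6% (54.8 to 56.4%) of the lid and ATPase reads in the knockout-labelled library and 51.3% (50.4 to 52.2%) in the wildtype, 1.19 (1.13 to 1.25). Core chaperones held 3.25% (3.01 to 3.498%) of their reads together with the core's in the knockout-labelled library and 4.09% (3.78 to 4.42%) in the wildtype, 0.787 (0.703 to 0.882). These 3 shifts were larger than counting error, and whether animals of 1 genotype differ as much among themselves is not known from 1 library each. Ratios also rose with level across all measured genes. The median RPM in the higher library was 15.9 for the core chaperones and 170 for the core. Centred on all genes within 4 groups by level, the assembly chaperones had a median log2 ratio of 0.08. The alpha ring was then at 0.009 and the constitutive beta ring at 0.20. The part of level in these shifts was not tested beyond this. The whole regulatory particle and the whole core differed less, with the regulatory particle at 53.7% (53.3 to 54.2%) of their reads in the knockout-labelled library and 55.3% (54.8 to 55.9%) in the wildtype, 0.938 (0.911 to 0.966).

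Subunits present in equal copies in the particle did not have equal mRNA levels in either library. Levels between genes are compared per kilobase of 1 transcript per gene, the longest of those marked principal in GENCODE M21. In the alpha ring this gave 2911 bases for Psma2 and 2846 for Psma3, and 914 for Psma7. The part of this choice in the levels was not tested. The alpha ring ranged from 7.01 RPM per kilobase for Psma3 to 292 for Psma7 in the knockout-labelled library, and from 6.35 to 210.2 for the same genes in the wildtype, ratios of highest to lowest of 41.6 in the knockout-labelled and 33.1 in the wildtype library. Psma3 has pseudogene copies of up to 100% identity, and without it the ratio was 26.9 in the knockout-labelled and 17.0 in the wildtype library. Without any alpha gene that has a copy, which leaves Psma1, Psma6 and Psma7, it was 8.98 in the knockout-labelled and 6.49 in the wildtype library. The constitutive beta ring was narrower. It ranged from 61.6 RPM per kilobase (Psmb3) to 412 (Psmb6) in the knockout-labelled library and from 55.2 (Psmb5) to 321 (Psmb6) in the wildtype. The immunoproteasome genes were lower, from 4.64 (Psmb9) to 26.9 RPM per kilobase (Psmb10) in the knockout-labelled library and from 3.87 to 20.95 in the wildtype for the same genes. The ATPases lay between 32.5 (Psmc6) and 150.3 RPM per kilobase (Psmc3) in the knockout-labelled library and between 28.5 and 148 in the wildtype. Median levels were 32.5 RPM per kilobase for the alpha ring, 169 for the constitutive beta ring and 55.5 for the lid in the knockout-labelled library, and 32.4, 103 and 37.9 in the wildtype.

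Some rows share sequence with other genes, and how the authors treated reads that match several places or strands is not given in the sources used here. In GENCODE M21, 15 of the 46 measured members had at least 1 pseudogene copy that matched over 200 bases or more at 90% identity or more, among them Psmb3 with 7 copies and Psma3 with 3. The log2 ratios had a median of 0.33 with such a copy (n = 15) and 0.29 without one (n = 31). In the alpha ring, the 4 genes with copies (Psma2, Psma3, Psma4 and Psma5) had ratios of 0.877 to 1.11, and the 3 without (Psma1, Psma6 and Psma7) 1.003 to 1.39. Psmb7, Psmb8 and Psmb10 overlap annotated genes on the opposite strand, and the Psmd7 row overlaps a cDNA clone row on its own strand. Of the 6 members at least 1.5-fold higher, Psmd8 and Psmd11 have a copy and Psmb7 and Psmb8 an overlap. With every member that has either left out, 22 members remained, with a median log2 ratio of 0.24. Psmb4 and Psmd12 were then the members at least 1.5-fold higher. The part of copies and overlaps in these ratios was not tested.

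Promoter windows of 250 bases before to 50 bases after the start were matched to 41 of the 49 members, and 32851 windows of all genes were searched in the same way on both strands. TGACNNNGC, the core of the antioxidant response element to which the NRF factors bind, occurred in 6 of 41 members (Psmb5, Psmb6, Psmc6, Psmd12, Psmd9 and Psme4), or 14.6%, and in 12.4% of all windows. CCAAT occurred in 15 of 41 members, or 36.6%, and in 37.4% of all windows. The spaced repeat of the interferon response element occurred in 5 members (Psmb3, Psmd4, Psmd9, Psme1 and Psmg4), or 12.2%, and in 3.44% of all windows. None of the 3 immunoproteasome windows held them, which says only that these letters are not in those windows. A match is a description of the sequence. In the members, 0 matches of different motifs overlapped. Members of the complex lie on 16 chromosomes.

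Proteasome proteins whose names fall outside the pattern had a wider range of ratios than the members. Of 12 measured, 8 had log2 ratios above 0, against 61.2% of all measured genes, and the median was 0.18. Adrm1, another ubiquitin receptor of the base, had 60.6 RPM in the knockout-labelled library and 28.8 RPM in the wildtype, a ratio of 2.11 (1.81 to 2.46), which is larger than that of any member. Shfm1, the smallest lid subunit, had 655 RPM in the knockout-labelled library and 421 RPM in the wildtype, a ratio of 1.56 (1.49 to 1.62). Fbxo7, which encodes an F-box protein that binds the Psmf1 protein, had 1.97 (1.495 to 2.60). Zfand2a, induced by stress, had 1.68. The ubiquitin-binding Zfand5 was lower, at 70.7 RPM in the knockout-labelled library and 99.9 RPM in the wildtype, a ratio of 0.708 (0.637 to 0.786).

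Genes known to control proteasome transcription did not share a direction. Of 17 measured, 11 had log2 ratios above 0, against 61.2% of all measured genes, and the median was 0.07. At least 1.5-fold higher were 5, against 12.8% of all measured genes, and 1 was at least 1.5-fold lower, against 7.30%. Maff, a small MAF partner of the NRF factors, had 35.1 RPM in the knockout-labelled library and 9.39 RPM in the wildtype, a ratio of 3.74 (2.91 to 4.85). Stat3 had 357 RPM in the knockout-labelled library and 149.9 RPM in the wildtype, a ratio of 2.38 (2.23 to 2.54). Foxo3, Mafk and Mafg had ratios of 1.83, 1.59 and 1.58, and Fbxw7, a ubiquitin ligase subunit, 0.565. Nfe2l1 and Nfe2l2, the genes of the NRF factors themselves, are named for that role and were chosen after their values were seen. Nfe2l1, which drives proteasome genes when the proteasome is impaired, had 896 RPM in the knockout-labelled library and 949.99 RPM in the wildtype, a ratio of 0.943 (0.914 to 0.973). Nfe2l2 had 26.6 RPM in the knockout-labelled library and 36.5 RPM in the wildtype, a ratio of 0.728 (0.611 to 0.865).

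The steps before and after the proteasome were also read from whole lists. Of 16 measured genes for ubiquitin and its activation, 12 had log2 ratios above 0, against 61.2% of all measured genes, with a median of 0.25. The conjugating enzyme genes Ube2g2, Ube2d3 and Ube2n had ratios of 1.71, 1.59 and 0.533. Of 16 genes for the VCP segregase and the shuttle factors, 14 had log2 ratios above 0, against the same 61.2%, and none reached 1.5-fold, with a median of 0.39 and the largest ratio, 1.496, for Nploc4. Of 12 peptidases that trim proteasome products, 10 had log2 ratios above 0, against 61.2%, and none reached 1.5-fold, with a median of 0.16.

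Partners of the immunoproteasome in antigen presentation and in the interferon response were examined beside Psmb8, Psmb9 and Psmb10. Of 12 measured genes for class I antigen processing, 10 had log2 ratios above 0, against 61.2% of all measured genes, 4 were at least 2-fold higher, against 3.35%, and the median was 0.36. B2m, the light chain of class I molecules, had 944 RPM in the knockout-labelled library and 326 RPM in the wildtype, a ratio of 2.89 (2.77 to 3.02). The heavy chain genes H2-D1, H2-Q4 and H2-K1 had ratios of 2.43, 2.29 and 2.24, which are uncertain since these genes are near copies of one another. Tap1, which lies between Psmb9 and Psmb8, had 8.43 RPM in the knockout-labelled library and 5.35 RPM in the wildtype, a ratio of 1.58 (1.07 to 2.34). The aminopeptidase gene Erap1 was lower, with a ratio of 0.572. Of 22 measured genes of the interferon response, 13 had log2 ratios above 0, close to the 61.2% of all measured genes, with a median of 0.19. At least 1.5-fold higher were 6, against 12.8% of all measured genes, and at least 1.5-fold lower were 3, against 7.30%. Irf7 had a ratio of 4.94 (3.04 to 8.42) and Ifit3, Ifit1 and Irf8 had ratios of 3.83, 3.27 and 2.46. Gbp2 had a ratio of 0.399, and Irf1, an activator of immunoproteasome genes, had 5.81 RPM in the knockout-labelled library and 9.75 RPM in the wildtype, a ratio of 0.596 (0.412 to 0.856).

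Immune cells carry the immunoproteasome, and their markers differed between the libraries. Of 9 measured macrophage markers, 7 had ratios whose intervals lay above 1, against 35.0% of all measured genes. The intervals of Mrc1 (1.02) and Cd14 (1.09) covered 1. Over 12 listed genes the macrophage markers summed to 376 RPM in the knockout-labelled library and 208 RPM in the wildtype. The 3 listed markers below 5 RPM went the other way, with 6 reads in the knockout-labelled library against 29 in the wildtype for Cx3cr1, 0 against 9 for Fcgr1 and 12 against 15 for Ptprc. None of 12 lymphocyte and natural killer markers reached 5 RPM, their sums being 1.14 RPM in the knockout-labelled library and 1.66 RPM in the wildtype, and Cd3d, Cd8a, Ms4a1 and Gzma were among those at 0 in both. Neutrophil markers summed to 14.4 RPM in the knockout-labelled library and 1.55 RPM in the wildtype. Most of the first sum was S100a9, with 88 reads in the knockout-labelled library and 5 in the wildtype. It was the only listed neutrophil marker to reach 5 RPM, and did so in the knockout-labelled library only. Markers of fibroblasts, smooth muscle cells and pericytes were lower or near 1. Of 6 fibroblast markers 5 had log2 ratios below 0, against 3957 of 10209 measured genes. The ratios were 0.175 for Col3a1, 0.192 for Lum and 0.228 for Col1a1. The sum of the 6 fibroblast markers, mostly Dcn, was 487 RPM in the knockout-labelled library and 546 RPM in the wildtype. All 5 measured smooth muscle and pericyte markers had log2 ratios below 0, against the same 3957 of 10209 measured genes. With 1 unmeasured marker these markers summed to 697 RPM in the knockout-labelled library and 768 RPM in the wildtype. Endothelial markers summed to 729 RPM in the knockout-labelled library and 662 RPM in the wildtype and did not share a direction. Of 7, 2 had intervals above 1, against 35.0% of all measured genes, and 2 below 1, against 16.8%. The ratios ran from 0.626 for Tek to 1.58 for Flt1. The 8 cardiomyocyte markers summed to 52364 RPM in the knockout-labelled library and 55075 RPM in the wildtype, so the defining markers of the labelled tissue were present. Of these 8, 2 had intervals above 1, against 35.0% of all measured genes, and 6 below 1, against 16.8%. Ryr2 had the highest ratio of the 8, 1.42, and Pln the lowest, 0.595. The part of other cell types in the members' ratios, those of Psmb8, Psmb9 and Psmb10 included, was not tested.

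Other scalings of the libraries lowered the members' ratios. Mitochondrial transcripts took 16.2% of the reads in the knockout-labelled library and 26.5% in the wildtype, and the RPM of every other gene shifts with it. After division by the median ratio of all genes, 37 of 46 members had a ratio above 1, against 49.99% of all measured genes, and the summed ratio was 1.20 (1.18 to 1.21). With mitochondrial transcripts and the 10 most abundant genes left out of the totals, 31 members had a ratio above 1, against 42.9% of all measured genes, and the summed ratio was 1.13 (1.12 to 1.15). The medians of the members and of all genes were then 0.11 and -0.08. On that scale the intervals of 19 members lay above 1, against 20.4% of all measured genes, and those of Psma5 and Psmc3 lay below 1, against 30.3%.

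Transcript length and level also moved with the ratio, since short and abundant genes had higher ratios across the whole table. Of all measured genes, 8973 had an annotated transcript length. In the shortest length group when these are split into 4 equal groups, which holds 33 of the 46 members, the median log2 ratio was 0.32 for the members and 0.22 for all genes. In the most abundant group of 4 by level, which holds 27 members, it was 0.36 for the members and 0.21 for all genes. In that group 24 of 27 members had intervals above 1, against 58.4% of all genes. Set against the median of their own group, 33 of 46 members were higher by length and 35 of 46 by level. Of all measured genes, 51.4% were higher by length, where genes without a length were left uncentred, and 49.99% by level. The part of length and level in the members' ratios was not tested beyond this.

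**Figure D5:**
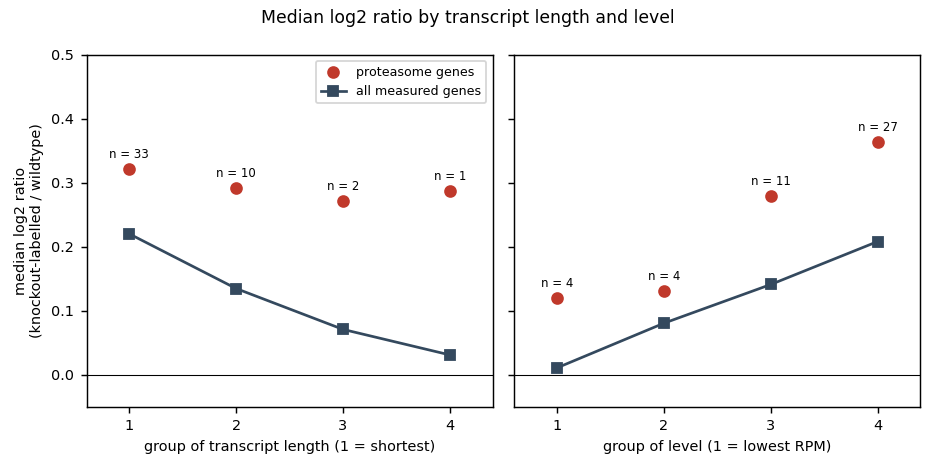
Median log2 ratio of knockout-labelled to wildtype RPM after adding 1 RPM (vertical axis) in 4 equal groups of transcript length (left panel, 1 the shortest) and of level (right panel, 1 the lowest), for proteasome genes (circles, with their number) and all measured genes (squares). The proteasome median lies above that of all genes in each group, at 0.32 against 0.22 in the shortest and 0.36 against 0.21 in the most abundant.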

How the data were processed

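The authors sequenced polyadenylated left ventricle RNA of 1 mouse per genotype, and samples were grouped by the genotype label. The submitters' processing notes name STAR (no version) and the builds mm10 and GRCm38. The counting tool, with its annotation and use of strand, is not given in the sources used here. Per the file headers, the authors deposited raw read counts for each gene symbol. Their deposited RPM is that count over the library total, times 1000000, to within 5e-05. The authors' deposited fold and p-value were not used, and 0 columns of other samples were present.

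The members and all gene lists were chosen with earlier results of these data known. Every member at or above 5 RPM in the higher library is named, and of the related lists the genes past 2-fold and up to 4 others with the largest log2 ratios. Some genes that this rule names are left out here. Log2 ratios carry a pseudocount of 1 RPM, so differences of low genes are understated. The ratios printed carry none and have exact conditional (Clopper-Pearson) 95% intervals from the reads, and shares of reads have exact binomial ones. Ratios of ratios have conditional odds ratio intervals. With 1 library per group no test of genotype was made. At depths of 8773820 reads in the knockout-labelled library and 8410593 in the wildtype, genes close to 5 RPM have wide intervals. The interval scripts were tested on simulated data. Transcript lengths and pseudogene copies (blastn 2.17.0) are from GENCODE M21 and promoters from RefSeq GRCm38.p6. Deposited coordinates start from 0 and are given plus 1. The alternatives were a pseudocount of 0.1 or 5 RPM, a minimum of 1 or 20 RPM or none, 3 rescalings (the median ratio, a mean of log ratios trimmed by 30% of ratios and 5% of levels, and totals that leave out mitochondrial rows as well as the 10 most abundant genes) and the mean in place of the median. Centring within 4 groups of length or of level, and leaving out rows with copies or overlaps, were chosen after seeing the data. The software was Python 3.11.15, numpy 2.4.6, pandas 2.3.3, scipy 1.17.1 and matplotlib 3.10.9.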

Additional observations from a re-analysis of the deposited data

How the results depend on the processing

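No paired analysis was possible because each genotype has 1 library. The count of members at least 1.5-fold higher, 6 as reported, changed with the setting, as did the share of all measured genes, 12.8% as reported. It was 3 (all genes 9.03%) after division by the median ratio and 3 (8.97%) after division by the trimmed mean. With totals that leave out mitochondrial transcripts and the 10 most abundant genes (reduced totals) it was 0 (7.30%). Centring within 4 groups gave 0 (9.17%) for transcript length and 1 (8.8%) for level. Without members that have a copy or an overlapping gene it was 2 of 22 (12.8%). The median log2 ratio of all members, 0.30 as reported, was 0.11 with reduced totals and 0.11 within length groups. For the constitutive beta ring, 0.41 became 0.22 with reduced totals, 0.19 within length groups and 0.20 within level groups. For the ATPases, 0.26 became 0.15 by the median ratio, 0.15 by the trimmed mean, 0.071 with reduced totals, 0.082 within length groups and 0.056 within level groups. For the lid, 0.36 became 0.24, 0.24, 0.17, 0.18 and 0.16 under the same 5 settings. For the activators, 0.33 became 0.13 with reduced totals and 0.12 within level groups. The median of the immunoproteasome genes minus that of their constitutive counterparts, -0.07 as reported, was 0.13 at a minimum of 20 RPM, where Psmb9 drops out. The centring subtracts the genes' own median and so lowers these values by construction, and the causes of the other changes were not tested. The shares within pairs of genes do not depend on the scale. Depth limits Psmb9, Psmd10 and Psmg3 most, each with at most 60 reads in a library.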
